A study of Mus musculus with 6 samples.

Results

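The genes in nuclear DNA that encode the subunits of the mitochondrial respiratory chain and ATP synthase were compared between a Tet2 knockout label and a wild-type label. Both groups were bone-marrow-derived mouse macrophages treated with monosodium urate (MSU), the crystal of gout, so MSU is shared by all 6 libraries, 3 of each genotype label. TET2, the product of Tet2, removes DNA methylation by oxidising the methyl group. The labels state neither the knockout allele, the strain, sex or age of the mice, the MSU dose nor the time of treatment, nor whether replicate libraries came from separate mice. P-values therefore set the difference between labels only against the spread estimated from these libraries, and that spread may be technical. The rule for members uses gene symbol and gene type: protein-coding rows with an Nduf, Sdh, Uqcr, Cox4 to Cox8 or Atp5 subunit symbol, with Cyc1 and Cycs. This gave 87 of the 54532 genes in the count table. Complex I had 37, complex II 4, complex III 9, complex IV 18 and complex V 18, and Cycs stood by itself.

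The respiratory chain sits in the inner mitochondrial membrane. Complex I takes electrons from NADH and complex II takes them from succinate. Both pass them to ubiquinone, complex III hands them on to cytochrome c, and complex IV uses them to reduce oxygen. Complexes I, III and IV pump protons as they do so, and complex V, the ATP synthase, lets the protons back and makes ATP. Complexes I, III, IV and V are built jointly from nuclear subunits and subunits encoded in mitochondrial DNA, whereas complex II is wholly nuclear. In macrophages the chain is also a source of reactive oxygen species, and inflammatory activation is known to shift these cells between oxidative phosphorylation and glycolysis.

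Read counts summed to between 13425170 and 14481843 in the knockout-labelled libraries and between 11997104 and 13881435 in the wild-type-labelled ones. The 87 subunit genes took 0.692% to 0.698% of counts in the knockout-labelled libraries and 0.685% to 0.719% in the wild-type-labelled ones. Levels below are CPM, read counts scaled to a common library size by TMM, and log2 differences are the knockout label minus the wild-type label. A gene is called where its edgeR p-value, adjusted over all 13175 genes tested, lies under 0.05. Tet2 itself was at 33.7 ± 0.80 CPM in the knockout-labelled libraries and 29.3 ± 1.41 CPM in the wild-type-labelled ones (SD, n = 3 each), a difference of 0.20 on the log2 scale (SE 0.070; adjusted p = 0.0159, edgeR). It lost that call without knockout replicate 2 (adjusted p = 0.0553, edgeR) and without wild-type replicate 2 (0.0799). DESeq2 did not call it (adjusted p = 0.0691), and with length and GC trends removed the difference was 0.072 (adjusted p = 0.418, limma). Counts over the whole gene do not check a deletion of part of it. Because the targeted gene was not lower, groups are named by their labels throughout. Wild-type replicate 2, the shallowest library, stood apart: its counts differed from those of the other wild-type libraries by 2.28 and 2.30 times the variance of sampling, against 1.56 to 1.71 times within other pairs of a group. All 8 macrophage markers were detected, with summed levels of 6665 to 6939 CPM in the knockout-labelled libraries and 6492 to 6906 CPM in the wild-type-labelled ones. Of these, Adgre1, Csf1r, Mertk and Fcgr1 were called higher and Cd14, Cd68 and Lyz2 lower, the last not without knockout replicate 1 (adjusted p = 0.0598, edgeR) or with the replicate number as a block (0.0938). Fibroblast and stromal markers were also abundant, with none of 7 at 0, 1 called higher and 4 called lower. They summed to 6946 to 7123 CPM in the knockout-labelled libraries, against 7405 to 7913 CPM in the wild-type-labelled ones. Of the macrophage list 87.5% and of the fibroblast and stromal list 71.4% were called, against 40.9% of all genes tested. When a change of more than 1.2-fold was required, 3 macrophage markers stayed higher and 0 lower (10.5% of all genes were called). With a biological coefficient of variation of 0.1 assumed, 3 stayed higher and 1 lower (14.3% of all genes). Of the fibroblast and stromal markers 0 stayed higher and 1 lower in each of these fits. Each list of neutrophil, dendritic, lymphoid, erythroid or mast cell markers summed to at most 6.68 CPM in any knockout-labelled library and 5.61 CPM in any wild-type-labelled one, and Ly6g, Retnlg, Siglech, Cd209a, Cd3g, Tpsb2, Ms4a2 and the globin genes Hbb-bs, Hbb-bt, Hba-a1 and Hba-a2 were at 0 in every library. Among these lists the dendritic marker Xcr1 was called higher (log2 difference 1.06; adjusted p = 0.000177, edgeR) and the mast cell marker Gata2 lower (-0.76; 0.0101), and Gata2 was not without knockout replicate 2 (0.112), without wild-type replicate 3 (0.0537) or with DESeq2 (0.0528). In bulk RNA, fewer cells of a type and less RNA per cell cannot be told apart, and the part of these cell types in the results below was not tested.

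Most fitted differences of the subunit genes between the labels were small. Of 87 members 82 had enough counts to be tested, and 15 of them (18.3%) were called higher in the knockout-labelled libraries, against 21.6% of all genes tested. Another 8 (9.76%) were called lower, against 19.2% of all genes tested, and 59 were not called. In all 28.05% of the tested members were called, below the 40.9% called across the table. Their median log2 difference was 0.029, beside -0.0031 over all genes tested. The median size of the difference, whatever its sign, was 0.078 for members and 0.169 for all genes. Among the 23 called members 21 had a difference under 0.3 on the log2 scale, and the other two were Ndufa4l2, which was lower, and Cox6a2, which was higher. In 26 members (31.7%) all libraries of one label lay above all of the other, against 47.8% of all genes tested.

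**Figure D1:**
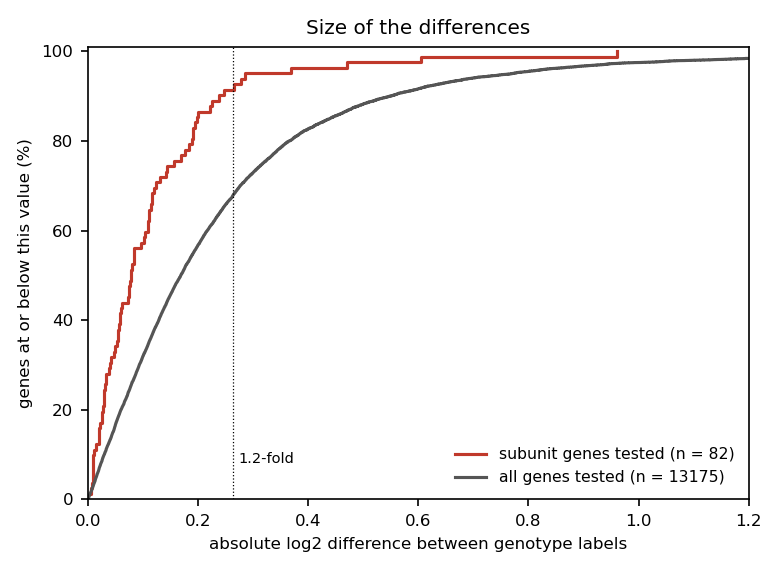
Share of genes (y axis, percent) whose log2 difference between the genotype labels, without its sign, is at or below the value on the x axis, for the 82 tested subunit genes and for all 13175 tested genes; the dotted line marks 1.2-fold. The curve of the subunit genes lies to the left of the other, with a median of 0.078 against 0.169.

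Intervals of the difference rest on how far libraries of 1 label lay apart, possibly a technical spread only, and none was computed with a larger assumed spread. The 95% interval of the difference lay within 1.2-fold in either direction for 61 of 82 members (74.4%), against 33.3% of all genes tested, and for 52 of the 59 that were not called. These genes are more abundant and better measured than most, with a median level of 56.1 CPM against 24.5 CPM and a median standard error of 0.053 against 0.080, and the part of this precision in that share was not tested. When a change of more than 1.2-fold was required, 1 member was called higher and 1 lower (10.5% of all genes tested were called), and the same counts were found when a biological coefficient of variation of 0.1 was assumed in place of the 2.63% estimated from these libraries (14.3% of all genes). DESeq2 called 7 members higher and 5 lower (31.5% of all genes). The direction of the calls leaned on the scaling. With upper-quartile scaling 11 members were higher and 11 lower. With length and GC trends removed, in a fit that also replaced edgeR by limma, 12 were higher and 11 lower, against 15 and 8 with TMM. Over all genes tested the split moved too: 53.0% of calls were higher with TMM, 47.4% with upper-quartile scaling and 44.3% with these trends removed. Among called members the shares were 65.2%, 50% and 52.2%. When each library was left out in turn, 4725 to 5177 of all genes were called. Without wild-type replicate 1, and again without wild-type replicate 3, 9 members were higher and 9 lower. Leaving out wild-type replicate 2 gave 16 higher and 4 lower, of which 13 and 4 were also called with all libraries, and 24.4% of members were then called against 38.6% of all genes.

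**Figure D2:**
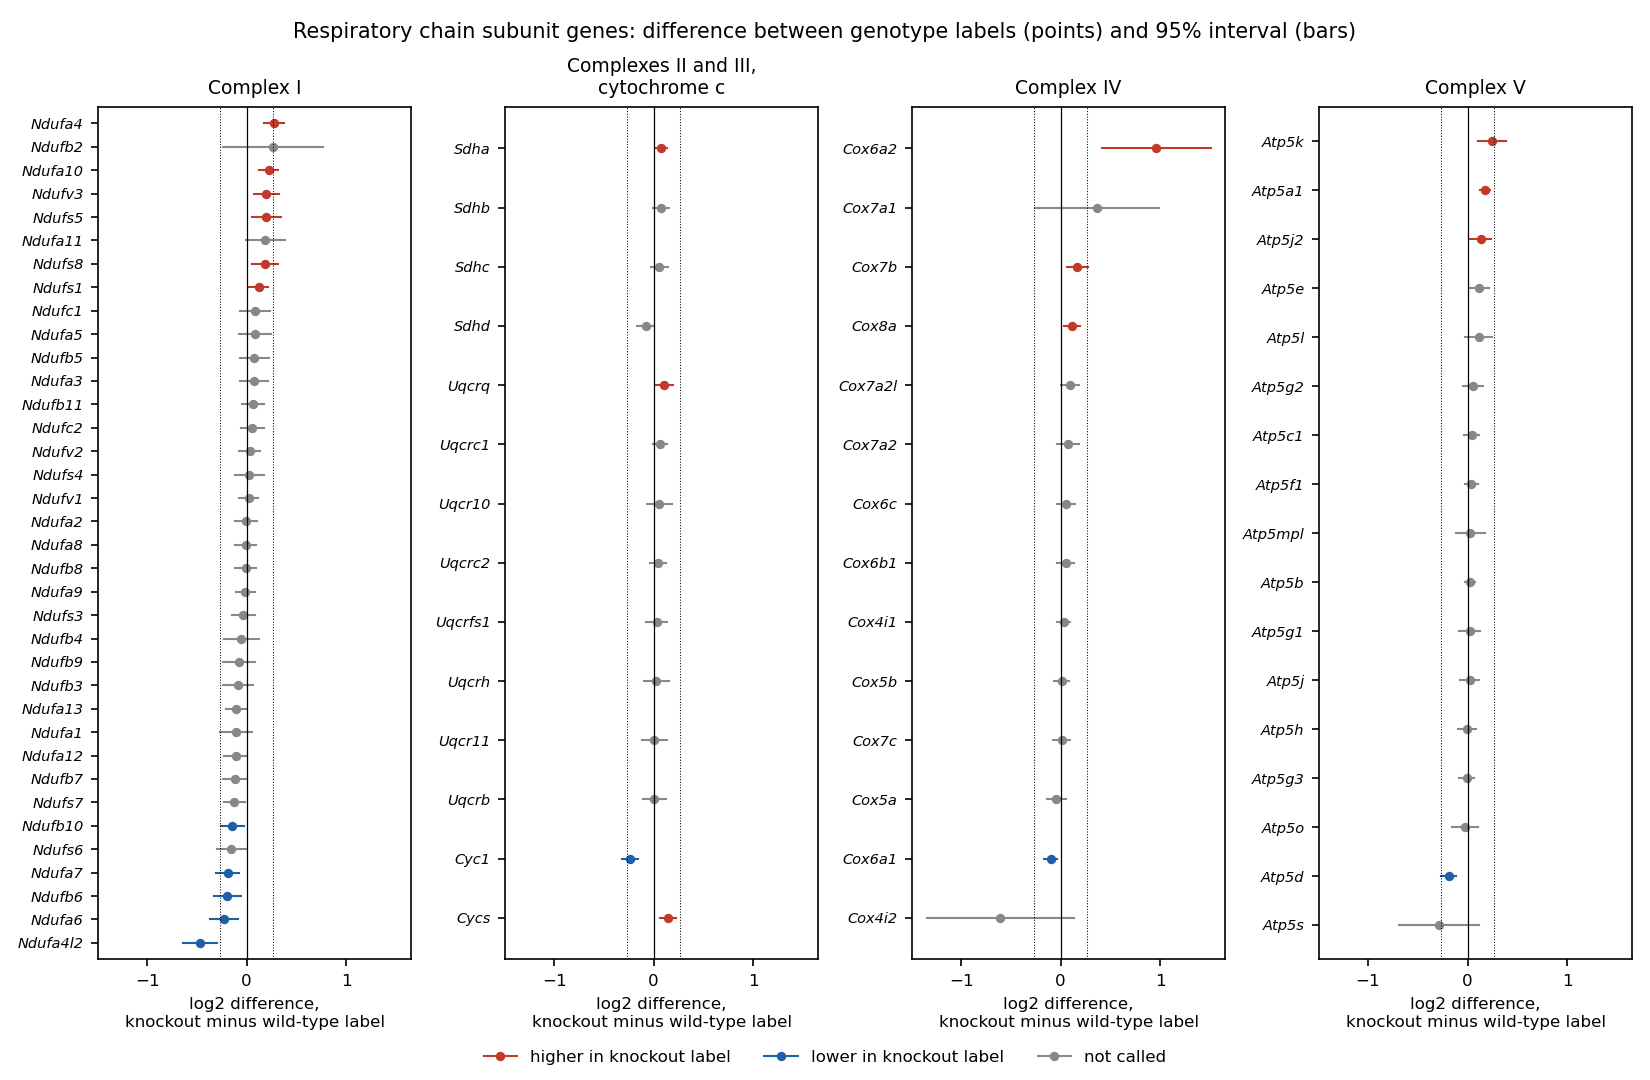
Log2 difference, knockout minus wild-type label (points), with its 95% interval (bars) for tested subunit genes, grouped by complex and ordered by size; dotted lines mark 1.2-fold in each direction, red marks genes called higher, blue genes called lower and grey genes not called. Cox6a2 and Ndufa4l2 are the called genes farthest from 0, and the widest intervals belong to genes of low level such as Cox4i2 and Cox7a1.

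Many of these genes are known to share binding sites for nuclear respiratory factor 1 (NRF1) and for the ETS family factor GABP in their promoters, and both factors' genes are described further on. Promoter windows of 250 bases before and 50 after the start site, from RefSeq on GRCm38.p6, matched 67 of the 86 distinct member symbols. On either strand the NRF1-type motif GCATGCGC occurred in 11 of them (16.4%), against 3.05% of 27025 genes with a window. The ETS core CCGGAAG occurred in 16 (23.9%), against 9.93% of genes, the cyclic AMP response element TGACGTCA in 5 (7.46%), against 2.03%, and the YY1-type motif AAGATGGC in 9 (13.4%), against 3.19%. These are matches of letters, not measured binding. Of the 11 members with the NRF1-type motif Cycs and Atp5k were called higher, Cox6a1 and Ndufa6 were called lower, and Sdhb, Uqcrc1, Uqcr11, Ndufa8, Ndufa11, Atp5g2 and Atp5l were not called. Over all genes tested 40.9% were called, 21.6% higher and 19.2% lower, and a link of the motif to the calls was not tested. The 4 called ones are shown as genes with the same motif that differed in opposite directions. Each line gives the 250 bases before the start site, 5′ to 3′ on the gene's own strand, with GCATGCGC in capitals. All 4 genes lie on the minus strand, at chr6:50566570-50566819 for Cycs, chr5:108434400-108434649 for Atp5k, chr5:115348959-115349208 for Cox6a1 and chr15:82354292-82354541 for Ndufa6.
Cycs: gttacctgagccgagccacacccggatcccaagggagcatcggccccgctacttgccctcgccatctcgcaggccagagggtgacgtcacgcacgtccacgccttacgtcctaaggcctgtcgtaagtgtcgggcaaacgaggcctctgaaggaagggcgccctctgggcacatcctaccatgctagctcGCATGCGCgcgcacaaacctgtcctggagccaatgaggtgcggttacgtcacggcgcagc
Atp5k: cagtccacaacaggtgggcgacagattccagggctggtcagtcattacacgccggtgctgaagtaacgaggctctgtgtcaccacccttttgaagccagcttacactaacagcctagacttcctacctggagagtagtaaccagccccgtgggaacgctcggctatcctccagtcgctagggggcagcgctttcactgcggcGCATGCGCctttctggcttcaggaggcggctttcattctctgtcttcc
Cox6a1: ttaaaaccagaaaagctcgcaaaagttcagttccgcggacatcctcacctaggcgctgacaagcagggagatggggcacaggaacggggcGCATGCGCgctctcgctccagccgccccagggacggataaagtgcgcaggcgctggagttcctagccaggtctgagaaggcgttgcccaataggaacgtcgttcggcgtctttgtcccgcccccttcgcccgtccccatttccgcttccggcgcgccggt
Ndufa6: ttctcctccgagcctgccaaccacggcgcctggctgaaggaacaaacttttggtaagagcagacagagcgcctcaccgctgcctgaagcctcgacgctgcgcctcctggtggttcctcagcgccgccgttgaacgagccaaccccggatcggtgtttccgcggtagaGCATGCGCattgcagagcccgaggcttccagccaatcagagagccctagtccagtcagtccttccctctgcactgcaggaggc
GCATGCGC began 60 bases before the start site in Cycs, 48 in Atp5k, 160 in Cox6a1 and 83 in Ndufa6. In Atp5k and Cox6a1 its reverse complement GCGCATGC overlaps it, begins just before the capitals and is only partly in capitals. Within the whole window Cycs also held the cyclic AMP response element, and Atp5k and Cox6a1 also held the ETS core.

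Complex I, the largest of the complexes, had 6 of 37 members called higher, 5 called lower and 26 not called, and its median log2 difference was -0.0035. In all 29.7% were called, against 40.9% of all genes tested. These values include Ndufa4, called higher, and Ndufa4l2, called lower, which are placed here by symbol alone and are described further on. The 7 nuclear core subunits of complex I carry the flavin and iron-sulfur clusters that lead electrons from NADH to ubiquinone. Of these, Ndufs8 and Ndufs1 were called higher and none was called lower. Ndufs8, which holds a pair of iron-sulfur clusters near the ubiquinone site, was at 35.7, 38.1 and 34.7 CPM in the knockout-labelled libraries and at 31.2, 32.5 and 32.1 CPM in the wild-type-labelled ones. The groups did not overlap, and the log2 difference was 0.18 (SE 0.067; adjusted p = 0.0217, edgeR). That call was lost without knockout replicate 2 (adjusted p = 0.140, edgeR) and without wild-type replicate 1 (0.0836). Ndufs1, the large subunit of the NADH-oxidising module, was at 82.5, 81.6 and 82.3 CPM in the knockout-labelled libraries and at 74.4, 82.8 and 70.2 CPM in the wild-type-labelled ones. Its groups overlapped, because wild-type replicate 2 was above every knockout-labelled library. Its log2 difference of 0.12 (adjusted p = 0.0344, edgeR) was called in just 1 of the 6 fits that left out a library, that without wild-type replicate 2. Without wild-type replicate 3 it was 0.064 (adjusted p = 0.361, edgeR), and the adjusted p was 0.0934, 0.0596 and 0.0875 with knockout replicate 1, 2 or 3 left out, and 0.126 with wild-type replicate 1 left out. Ndufs3, Ndufs7, Ndufv1 and Ndufv2 were not called, with log2 differences from -0.12 for Ndufs7 to 0.029 for Ndufv2. Ndufv1, which binds the flavin, stood at 72.6, 73.7 and 72.9 CPM in the knockout-labelled libraries and 70.3, 73.4 and 72.7 CPM in the wild-type-labelled ones, so the groups overlapped.

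The accessory subunits of complex I surround and stabilise that core. Of 9 in the matrix arm 33.3% were called, against 40.9% of all genes tested. Ndufv3 was called higher, Ndufa6 and Ndufa7 were called lower, and Ndufs4, Ndufs6, Ndufa2, Ndufa5, Ndufa9 and Ndufa12 were not called. Ndufa6, which is needed for a stable complex, was at 29.3, 29.5 and 27.0 CPM in the knockout-labelled libraries and 32.7, 35.9 and 32.0 CPM in the wild-type-labelled ones, a difference of -0.22 on the log2 scale (SE 0.071; adjusted p = 0.00663, edgeR). Ndufa7 was at 46.0, 47.5 and 46.4 CPM in the knockout-labelled libraries and 52.4, 57.6 and 49.8 CPM in the wild-type-labelled ones, a difference of -0.19 on the log2 scale (SE 0.057; adjusted p = 0.00436, edgeR). In both genes every knockout-labelled library lay below every wild-type-labelled library. The call of Ndufa6 was lost without knockout replicate 3 (adjusted p = 0.0567, edgeR) and that of Ndufa7 without wild-type replicate 2 (0.0536). Ndufv3, a small subunit of the NADH-oxidising module, was 42.9 ± 0.76 CPM in the knockout-labelled libraries and 37.3 ± 2.54 CPM in the wild-type-labelled ones (SD, n = 3 each), a difference of 0.20 on the log2 scale (adjusted p = 0.00668, edgeR). It lost that call without wild-type replicate 3 (adjusted p = 0.0871, edgeR). Ndufa2, whose level per kilobase of transcript was the highest in complex I, had 49.5, 49.4 and 47.0 CPM in the knockout-labelled libraries and 47.5, 50.0 and 49.0 CPM in the wild-type-labelled ones. The groups overlapped, and the log2 difference was -0.0035 (95% interval -0.12 to 0.11).

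In the membrane arm, where the proton-pumping machinery lies, 21.1% of 19 tested accessory subunits were called, against 40.9% of all genes tested. Ndufa10 and Ndufs5 were called higher, Ndufb6 and Ndufb10 were called lower, and 15 were not called: Ndufa1, Ndufa3, Ndufa8, Ndufa11, Ndufa13, Ndufb2, Ndufb3, Ndufb4, Ndufb5, Ndufb7, Ndufb8, Ndufb9, Ndufb11, Ndufc1 and Ndufc2. Ndufa10, a subunit of the membrane arm related to nucleoside kinases, was at 74.9, 75.4 and 70.8 CPM in the knockout-labelled libraries and 63.8, 64.9 and 61.0 CPM in the wild-type-labelled ones. Every knockout-labelled library was the higher, by a difference of 0.22 on the log2 scale (SE 0.049; adjusted p = 8.39e-05, edgeR), and the call was kept whichever library was left out. Ndufs5 was 31.4 ± 2.79 CPM in the knockout-labelled libraries and 27.3 ± 0.52 CPM in the wild-type-labelled ones (log2 difference 0.20; adjusted p = 0.0214, edgeR). Without knockout replicate 3 its difference was 0.13 (adjusted p = 0.229, edgeR), and its call was also lost without wild-type replicate 1 (0.0610) and without wild-type replicate 2 (0.0539). Ndufb6 was 31.4 ± 1.31 CPM in the knockout-labelled libraries and 36.1 ± 3.03 CPM in the wild-type-labelled ones (log2 difference -0.19; adjusted p = 0.0167, edgeR), with no overlap between groups. Its call was lost without knockout replicate 2 (adjusted p = 0.0824, edgeR), knockout replicate 3 (0.0524) or wild-type replicate 2 (0.129), and 39.0% of its exon bases are shared with Smim27. Ndufb10 was 43.0 ± 0.96 CPM in the knockout-labelled libraries and 47.4 ± 0.72 CPM in the wild-type-labelled ones (log2 difference -0.14; adjusted p = 0.0430, edgeR). That call did not survive the loss of any single library, with edgeR adjusted p from 0.0559 without wild-type replicate 3 to 0.149 without knockout replicate 2, and 0.0599, 0.0738, 0.0713 and 0.0714 without knockout replicate 1, knockout replicate 3, wild-type replicate 1 and wild-type replicate 2. Ndufb2 had the lowest level per kilobase of all tested members, at 0.45 ± 0.14 CPM per kb in the knockout-labelled libraries and 0.38 ± 0.022 CPM per kb in the wild-type-labelled ones (SD, n = 3 each).

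Ndufa4 and its paralog Ndufa4l2 carry complex I names, but the Ndufa4 protein is now known to be a subunit of complex IV. Ndufa4l2 is known as a target of the hypoxia-inducible factor HIF-1 that limits mitochondrial oxygen use. The pair differed in opposite directions. Ndufa4 was at 71.2, 73.8 and 71.1 CPM in the knockout-labelled libraries, against 63.8, 54.1 and 59.8 CPM in the wild-type-labelled ones, a difference of 0.28 on the log2 scale (SE 0.051; adjusted p = 2.68e-06, edgeR). Ndufa4l2 was at 16.4, 17.1 and 15.6 CPM in the knockout-labelled libraries, against 23.6, 22.6 and 21.8 CPM in the wild-type-labelled ones, a difference of -0.47 on the log2 scale (SE 0.087; adjusted p = 3.30e-06, edgeR). In neither gene did the groups overlap: every knockout-labelled library had more Ndufa4 and less Ndufa4l2. Per kilobase, Ndufa4l2 made up 22.3% ± 0.51 of the pair's summed level in the knockout-labelled libraries and 32.6% ± 1.66 in the wild-type-labelled ones (SD, n = 3 each). Ndufa4l2 was the one called member that kept its call in all 18 alternatives, at log2 differences from -0.50 to -0.44. The call of Ndufa4 was kept whichever library was left out and was lost only with a required change of 1.2-fold (adjusted p = 0.709, edgeR) and with the assumed coefficient of variation of 0.1 (0.120). Shmt2, a mitochondrial serine enzyme that shares 2.92% of the exon bases of Ndufa4l2, was called in the other direction (log2 difference 0.30; adjusted p = 4.34e-10, edgeR). AA467197, the mouse gene of another Ndufa4-like protein, was not called (log2 difference 0.16; adjusted p = 0.200, edgeR).

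**Figure D3:**
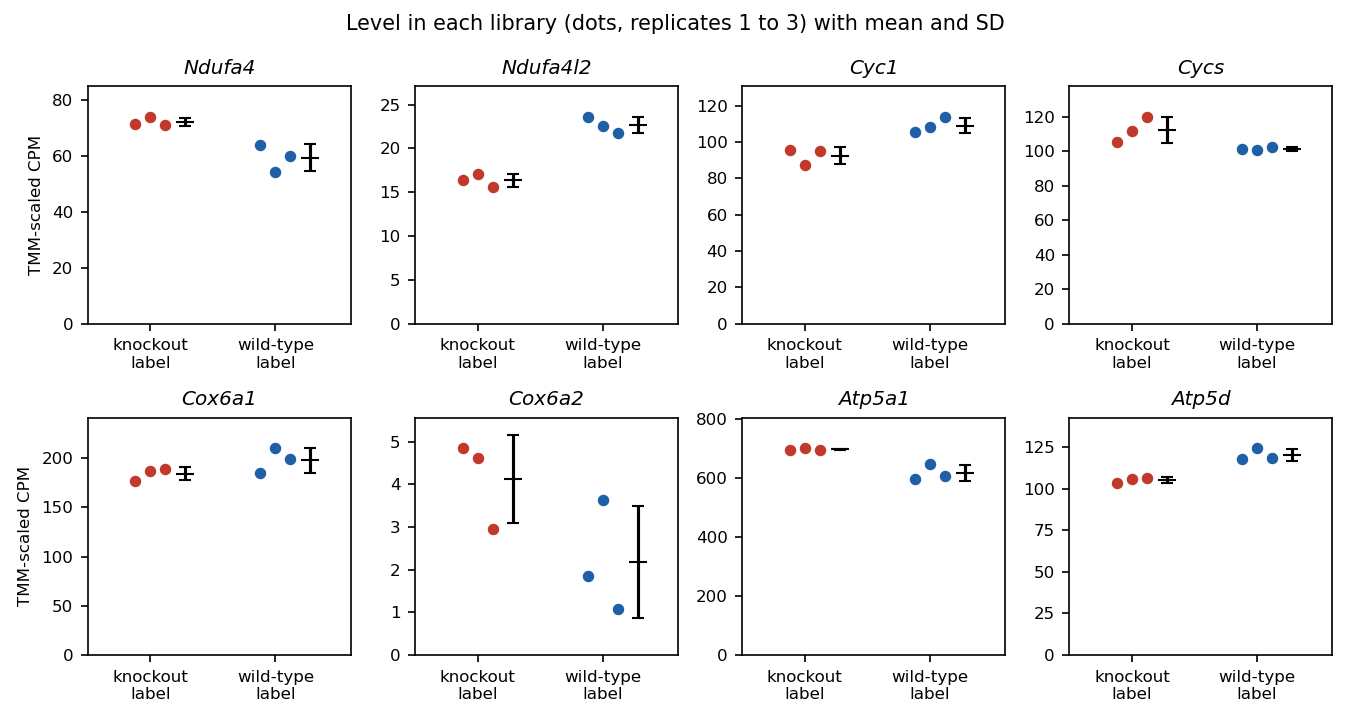
Level in CPM (y axis, from 0) of 8 subunit genes in each library, with replicates 1 to 3 as dots and the mean and SD of each label beside them. The dots of the labels do not overlap for Ndufa4, Ndufa4l2, Cyc1, Cycs, Atp5a1 and Atp5d, and they overlap for Cox6a1 and Cox6a2.

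Complex II oxidises succinate and is the one complex shared with the citric acid cycle. Of the 4 members of complex II 1 was called (25%), against 40.9% of all genes tested. Sdha, its flavoprotein, was at 240.1, 248 and 243 CPM in the knockout-labelled libraries and 233, 229 and 230.4 CPM in the wild-type-labelled ones. The groups did not overlap, but the log2 difference was 0.078 (SE 0.031; adjusted p = 0.0340, edgeR). The call was lost without knockout replicate 2 (adjusted p = 0.163, edgeR), knockout replicate 3 (0.0640), wild-type replicate 1 (0.0579), wild-type replicate 2 (0.0676) or wild-type replicate 3 (0.0966). Sdhb, the iron-sulfur subunit, was at 116, 115 and 115 CPM in the knockout-labelled libraries and 108, 117 and 105 CPM in the wild-type-labelled ones, where replicate 2 exceeded every knockout-labelled library. It was not called (adjusted p = 0.154, edgeR), but without wild-type replicate 2 it was (log2 difference 0.11; adjusted p = 0.0228, edgeR). The membrane anchors Sdhc and Sdhd overlapped between groups and were not called. Sdhc was at 106, 114 and 109 CPM in the knockout-labelled libraries and 98.8, 112 and 106 CPM in the wild-type-labelled ones, and Sdhd, the member with the highest level per kilobase in the complex, at 92.0, 95.8 and 88.5 CPM in the knockout-labelled libraries and 100.3, 96.8 and 94.4 CPM in the wild-type-labelled ones. All 4 intervals lay within 1.2-fold, from -0.16 to 0.0080 for Sdhd to 0.017 to 0.14 for Sdha.

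In complex III, 1 of 9 members was called higher and 1 lower (22.2% called, against 40.9% of all genes tested). Cyc1, the cytochrome c1 that passes electrons on to cytochrome c, was at 95.3, 87.2 and 94.98 CPM in the knockout-labelled libraries, against 105, 108 and 114 CPM in the wild-type-labelled ones. Every knockout-labelled library was below every wild-type-labelled library, with a difference of -0.24 on the log2 scale (SE 0.042; adjusted p = 1.43e-06, edgeR). Its call was kept whichever library was left out. Uqcrq, a small subunit of the membrane part, was at 103, 97.2 and 103 CPM in the knockout-labelled libraries and 95.8, 97.7 and 88.3 CPM in the wild-type-labelled ones, and the groups overlapped through knockout replicate 2 and wild-type replicate 2. Its log2 difference was 0.11 (SE 0.043; adjusted p = 0.0330, edgeR), and it was 0.063 without wild-type replicate 3 (adjusted p = 0.323, edgeR). The call was also lost without knockout replicate 1 (adjusted p = 0.141, edgeR) and knockout replicate 3 (0.119). The core proteins Uqcrc1 and Uqcrc2, the Rieske iron-sulfur protein Uqcrfs1 and the small subunits Uqcrb, Uqcrh, Uqcr10 and Uqcr11 were not called. Uqcrc1 was at 154, 156 and 158 CPM in the knockout-labelled libraries and 148, 154 and 147 CPM in the wild-type-labelled ones, which overlapped. Uqcrc2 was at 110.1, 109.7 and 110.2 CPM in the knockout-labelled libraries and 108, 108 and 103 CPM in the wild-type-labelled ones, which did not overlap, at a difference of 0.047 on the log2 scale (adjusted p = 0.369, edgeR). Uqcr10, with the highest level per kilobase of the complex, had 38.4, 43.8 and 38.1 CPM in the knockout-labelled libraries and 36.5, 43.0 and 36.5 CPM in the wild-type-labelled ones, and its groups overlapped.

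Cytochrome c, the soluble carrier between complexes III and IV and a trigger of apoptosis once it leaves the mitochondrion, is encoded by Cycs. Cycs was at 105, 112 and 120.0 CPM in the knockout-labelled libraries, against 102, 100.5 and 103 CPM in the wild-type-labelled ones, so its partner Cyc1 was lower where Cycs was higher. The knockout-labelled libraries were all above the wild-type-labelled ones but spread more widely, by an SD of 7.39 CPM against 1.14 CPM. The log2 difference was 0.14 (SE 0.042; adjusted p = 0.00305, edgeR). Without knockout replicate 3, its highest library, the difference was 0.096 and the call was lost (adjusted p = 0.0978, edgeR). Of its 75-base windows 23.9% also occur in another annotated gene, so reads of nearly identical copies make its level uncertain.

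Complex IV is built from core subunits of mitochondrial DNA and nuclear subunits, several of which come in isoforms used by particular tissues. Of its 14 tested members 28.6% were called, against 40.9% of all genes tested. Of its 11 subunits used in most tissues Cox7b and Cox8a were called higher, Cox6a1 was called lower, and Cox4i1, Cox5a, Cox5b, Cox6b1, Cox6c, Cox7a2, Cox7a2l and Cox7c were not called. Cox7b was at 60.1, 59.3 and 58.2 CPM in the knockout-labelled libraries and 53.5, 54.1 and 50.5 CPM in the wild-type-labelled ones, without overlap (log2 difference 0.17, SE 0.053; adjusted p = 0.00671, edgeR). Cox8a was at 129, 121 and 124 CPM in the knockout-labelled libraries and 108, 118 and 119 CPM in the wild-type-labelled ones, also without overlap (log2 difference 0.11, SE 0.040; adjusted p = 0.0150, edgeR). The call of Cox7b was lost without wild-type replicate 3 (adjusted p = 0.0667, edgeR), and that of Cox8a without knockout replicate 1 (0.139) and without wild-type replicate 1, where the difference was 0.067 (0.240). Cox6a1, the isoform of most tissues and the member with the highest level per kilobase of all 82, was at 177, 187 and 189 CPM in the knockout-labelled libraries and 185, 209.8 and 199 CPM in the wild-type-labelled ones. The groups overlapped, since wild-type replicate 1 lay below both knockout replicate 2 and knockout replicate 3. Its log2 difference was -0.10 (SE 0.035; adjusted p = 0.0147, edgeR), and the call was lost without knockout replicate 1 (0.169) or without wild-type replicate 2, where the difference was -0.066 (0.106).

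The tissue isoforms of complex IV were scarce, and 3 of 7 could be tested. Cox6a2, known from heart and skeletal muscle, was at 4.84, 4.62 and 2.95 CPM in the knockout-labelled libraries and 1.85, 3.63 and 1.08 CPM in the wild-type-labelled ones, on raw counts of 69, 65 and 39 against 26, 44 and 15. Wild-type replicate 2 was above knockout replicate 3, so the groups overlapped, yet this was the largest difference among members (log2 0.96, SE 0.27; adjusted p = 0.00414, edgeR). It was 1.49 without wild-type replicate 2 and 0.63 without wild-type replicate 3, and called in both cases. DESeq2 did not call it (log2 difference 0.93; adjusted p = 0.177). Even so Cox6a2 supplied only 2.27% ± 0.61 of the summed Cox6a1 and Cox6a2 level per kilobase in the knockout-labelled libraries and 1.11% ± 0.60 in the wild-type-labelled ones (SD, n = 3 each). Itgad, which shares 10.3% of its exon bases, was at 0 in every knockout-labelled library and at no more than 0.17 CPM in the wild-type-labelled ones. Cox4i2, an isoform of lung and of hypoxic cells, was at 1.05, 0.99 and 0.38 CPM in the knockout-labelled libraries and 1.07, 1.32 and 1.37 CPM in the wild-type-labelled ones. The groups did not overlap, but on so few counts its log2 difference of -0.60 had a 95% interval of -1.35 to 0.14 and was not called (adjusted p = 0.199, edgeR). Cox4i1 was at 242, 248 and 254 CPM in the knockout-labelled libraries and 239, 260.3 and 229 CPM in the wild-type-labelled ones, where replicate 2 was the highest of all 6 libraries. Without that library Cox4i1 was called higher (log2 difference 0.078; adjusted p = 0.0262, edgeR).

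Among the other isoform groups Cox7a1, the muscle form, was at 1.26, 2.42 and 1.44 CPM in the knockout-labelled libraries and 1.07, 1.07 and 1.80 CPM in the wild-type-labelled ones. Cox7a2 was at 51.9, 51.1 and 56.3 CPM in the knockout-labelled libraries and 50.7, 46.0 and 54.0 CPM in the wild-type-labelled ones. Cox7a2l, which helps to join complexes III and IV into supercomplexes, was at 84.8, 83.5 and 78.2 CPM in the knockout-labelled libraries and 75.2, 76.9 and 78.7 CPM in the wild-type-labelled ones. All of these overlapped between groups and were not called, although Cox7a2l came near the threshold (log2 difference 0.10; adjusted p = 0.0878, edgeR). Cox6b1 overlapped too, at 93.5, 88.8 and 89.3 CPM in the knockout-labelled libraries and 86.8, 92.5 and 83.5 CPM in the wild-type-labelled ones. Cox6b2, a testis form, had raw counts of 2, 1 and 0 in the knockout-labelled libraries and 2, 2 and 7 in the wild-type-labelled ones and was not tested. Cox7b2 had 1 read in knockout replicate 2 and none elsewhere. Cox8b, another muscle form, had 1 read each in knockout replicates 1 and 2 and none in the wild-type-labelled libraries. Cox8c had none in any library.

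In complex V, 3 of 17 tested members were called higher and 1 lower (23.5% called, against 40.9% of all genes tested). Atp5a1, the alpha subunit, was at 696, 700.2 and 695 CPM in the knockout-labelled libraries, against 596, 647 and 608 CPM in the wild-type-labelled ones. The groups were well apart, and this was the smallest adjusted p of any member (log2 difference 0.18, SE 0.026; adjusted p = 4.69e-09, edgeR). Atp5b, the beta subunit that alternates with alpha around the head, was at 1005, 997 and 998 CPM in the knockout-labelled libraries and 948, 1016 and 985 CPM in the wild-type-labelled ones. Its groups overlapped, and its log2 difference of 0.025 had a 95% interval of -0.022 to 0.072, wholly below that of Atp5a1, 0.13 to 0.23; the difference between the genes was not tested. Atp5d, the delta subunit of the central stalk, was at 104, 106 and 107 CPM in the knockout-labelled libraries, against 118, 124 and 119 CPM in the wild-type-labelled ones, with every knockout-labelled library the lower (log2 difference -0.19, SE 0.040; adjusted p = 3.29e-05, edgeR). The calls of Atp5a1 and Atp5d were kept whichever library was left out. The other subunits of the central stalk, Atp5c1 (gamma) and Atp5e (epsilon), were not called, although the groups did not overlap in Atp5e, at 66.0, 66.8 and 63.6 CPM in the knockout-labelled libraries and 59.6, 63.3 and 58.5 CPM in the wild-type-labelled ones (adjusted p = 0.0551, edgeR).

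The small membrane subunits of complex V help to hold its dimers together. Atp5k, the e subunit, was at 34.8, 34.7 and 32.4 CPM in the knockout-labelled libraries, against 29.6, 28.4 and 27.98 CPM in the wild-type-labelled ones, without overlap (log2 difference 0.25, SE 0.070; adjusted p = 0.00234, edgeR), and kept its call whichever library was left out. Atp5j2, the f subunit, was at 62.9, 66.6 and 59.8 CPM in the knockout-labelled libraries and 56.1, 59.3 and 57.8 CPM in the wild-type-labelled ones, just without overlap (log2 difference 0.13, SE 0.052; adjusted p = 0.0359, edgeR). Its call was lost without knockout replicate 1 (adjusted p = 0.0726, edgeR), knockout replicate 2 (0.254), wild-type replicate 1 (0.153) or wild-type replicate 3 (0.0786). Atp5l, the g subunit, and Atp5mpl were not called. None of the 4 tested peripheral stalk genes, Atp5f1, Atp5h, Atp5j and Atp5o, was called, and their log2 differences ran from -0.025 to 0.038. A second row with the symbol Atp5o had no read in any library. The 3 genes that encode the same c-ring protein were not called either. Atp5g1 was at 60.4, 60.4 and 60.2 CPM in the knockout-labelled libraries and 60.5, 62.1 and 55.9 CPM in the wild-type-labelled ones, Atp5g2 at 61.8, 65.4 and 60.5 CPM in the knockout-labelled libraries and 61.5, 57.3 and 61.6 CPM in the wild-type-labelled ones, and Atp5g3 at 155, 166 and 158 CPM in the knockout-labelled libraries and 160.4, 170.1 and 153 CPM in the wild-type-labelled ones. Per kilobase Atp5g3 made up 59.6% ± 0.40 of the 3 in the knockout-labelled libraries and 60.6% ± 1.69 in the wild-type-labelled ones (SD, n = 3 each). Atp5s, a factor named for ATP synthase, was scarce, at 2.81, 3.41 and 3.18 CPM in the knockout-labelled libraries and 3.98, 3.88 and 3.60 CPM in the wild-type-labelled ones, and was not called (adjusted p = 0.272, edgeR), although the groups did not overlap.

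Summed over members, the complexes stood close together. Complex I summed to 1646 ± 3.78 CPM in the knockout-labelled libraries and 1640.3 ± 48.1 CPM in the wild-type-labelled ones (SD, n = 3 each). Complex II summed to 561 ± 10.3 CPM in the knockout-labelled libraries and 543 ± 10.1 CPM in the wild-type-labelled ones, complex III to 692 ± 4.74 CPM in the knockout-labelled libraries and 688 ± 23.4 CPM in the wild-type-labelled ones, and complex IV to 1219.7 ± 8.73 CPM in the knockout-labelled libraries and 1197 ± 36.8 CPM in the wild-type-labelled ones. In each of these the libraries of the labels overlapped. Complex V summed to 2835, 2841 and 2815 CPM in the knockout-labelled libraries and to 2660.0, 2811 and 2689 CPM in the wild-type-labelled ones, a difference of 4.06% with no overlap, though wild-type replicate 2 came within a few CPM of knockout replicate 3. That sum includes the abundant Atp5a1, which was called higher. Of the 17 tested members of complex V 13 were not called, and the median log2 difference of the 17 was 0.029. Wild-type replicate 2 held the highest sum of any library in complexes I, III and IV and over all members, at 7115 CPM, against 7037, 7085 and 7063 CPM in the knockout-labelled libraries and 6756 and 6799 CPM in the other wild-type-labelled libraries. The sums are a description without a test, and that of complex I includes Ndufa4 and Ndufa4l2.

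Levels of different genes are compared per kilobase of transcript. Over all 6 libraries the highest were Cox6a1 at 272 CPM per kb, Atp5b at 234, Cox8a at 219.9 and Atp5a1 at 209.6. Cox6a1, the first in that order, was called lower, and Cox8a and Atp5a1 were called higher. Cox6a1 was at 263 ± 9.07 CPM per kb in the knockout-labelled libraries and 282 ± 18.0 in the wild-type-labelled ones, and Atp5b at 236 ± 1.06 CPM per kb in the knockout-labelled libraries and 232 ± 7.92 in the wild-type-labelled ones, so the first and second places were set apart by more than their SDs. Atp5b, Cox8a and Atp5a1 lay closer: in the knockout-labelled libraries Cox8a was at 228 ± 8.09 and Atp5a1 at 222 ± 0.90 CPM per kb, a gap smaller than the SD of Cox8a but not that of Atp5a1, against 211 ± 10.8 and 197 ± 8.42 CPM per kb in the wild-type-labelled ones (SD, n = 3 each). The lowest of the tested members were Ndufb2, Cox4i2, Atp5s, Cox7a1 and Cox6a2. Transcript lengths in the table count all exons of a gene.

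Chaperones and assembly factors build the complexes without remaining in them. Of 52 tested 3 were called higher and 8 lower (21.2% called, against 40.9% of all genes tested), with a median log2 difference of -0.069. With a required change of 1.2-fold, or with the assumed coefficient of variation of 0.1, Cox15 alone kept its call and none of the 8 lower calls was left. DESeq2 lost Ttc19, Surf1, Atpaf2 and Atpif1. In the knockout-labelled libraries the complex I factors Timmdc1 (log2 difference -0.31; adjusted p = 0.00266, edgeR) and Ndufaf7 (-0.41; 0.00690) were lower, and none of 16 was higher. Sdhaf2, which attaches the flavin to Sdha, was lower (-0.18; 0.00706), and Sdhaf1, Sdhaf3 and Sdhaf4 were not called, at log2 differences of -0.19, -0.23 and -0.19. Among complex III factors Uqcc2 (-0.32; 0.000102) and Ttc19 (-0.24; 0.0128) were lower and none of 6 was higher. Complex IV factors split: Coa5 (0.32; 2.17e-16) and Cox15, which makes heme a (0.39; 6.02e-10), were higher, and Coa7 (-0.29; 0.00399) and Surf1 (-0.17; 0.0433) were lower, of 21 tested. Of 5 tested for complex V the inhibitor Atpif1 was higher (0.14; 0.0406) and the assembly factor Atpaf2 lower (-0.22; 0.0378). Coa5 was at 273, 281 and 271 CPM in the knockout-labelled libraries and 221, 222 and 220.2 CPM in the wild-type-labelled ones. Cox15 was at 62.6, 65.9 and 67.5 CPM in the knockout-labelled libraries and 51.0, 48.8 and 49.8 CPM in the wild-type-labelled ones. The calls of Uqcc2, Coa5, Cox15 and Coa7 were kept whichever library was left out. Those of Timmdc1 (without wild-type replicate 1, adjusted p = 0.0705, edgeR), Ndufaf7 (without knockout replicate 1, 0.106), Sdhaf2 (without knockout replicate 3, 0.0620, and wild-type replicate 3, 0.0623) and Ttc19 (without knockout replicate 3, 0.118) were lost. Surf1 was lost without knockout replicate 1 (adjusted p = 0.194, edgeR), knockout replicate 2 (0.149), wild-type replicate 2 (0.155) and wild-type replicate 3 (0.0967). Atpaf2 was lost without knockout replicates 1 (adjusted p = 0.155, edgeR) and 3 (0.0926) and wild-type replicates 1 (0.128) and 2 (0.0722), and Atpif1 without knockout replicates 2 (0.121) and 3 (0.0989) and wild-type replicates 1 (0.0745) and 3 (0.149).

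Of the 10 tested subunits encoded in mitochondrial DNA 8 were called higher and 1 lower (90% called, against 40.9% of all genes tested). Their median log2 difference was 0.46, beside 0.029 for the nuclear members. The mitochondrially encoded genes took 0.349% to 0.366% of counts in the knockout-labelled libraries and 0.240% to 0.275% in the wild-type-labelled ones. mt-Cytb, the cytochrome b of complex III, was at 356, 339.8 and 341 CPM in the knockout-labelled libraries, against 251, 227 and 262 CPM in the wild-type-labelled ones (log2 difference 0.49, SE 0.034; adjusted p = 1.01e-16, edgeR). mt-Nd1 of complex I was at 322, 306 and 294 CPM in the knockout-labelled libraries, against 236, 217 and 239.7 CPM in the wild-type-labelled ones (log2 difference 0.41, SE 0.032; adjusted p = 1.91e-19, edgeR). Neither overlapped between groups. Also higher were mt-Co1 (0.52), mt-Nd2 (0.54), mt-Nd4 (0.55), mt-Nd5 (0.61), mt-Nd6 (0.43) and mt-Atp6 (0.43), whereas mt-Co3 was lower (-0.48; adjusted p = 0.000608, edgeR) and mt-Co2 was not called (0.11). The call of mt-Nd4 was lost without knockout replicate 1 (adjusted p = 0.0591, edgeR), 2 (0.0550) or 3 (0.0544) or wild-type replicate 3 (0.0716), and that of mt-Atp6 without knockout replicate 1 (0.0534) or 2 (0.0617) or wild-type replicate 1 (0.0777). mt-Co2, mt-Co3 and mt-Atp6 stood at only 5.15 to 11.6 CPM on average, against 1749 CPM for mt-Co1 in the knockout-labelled libraries and 1216 CPM in the wild-type-labelled ones. Copies of mitochondrial sequence in nuclear DNA can take up or hide such reads, so these levels are uncertain. A fit without the mitochondrially encoded genes called the same 23 nuclear members.

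**Figure D4:**
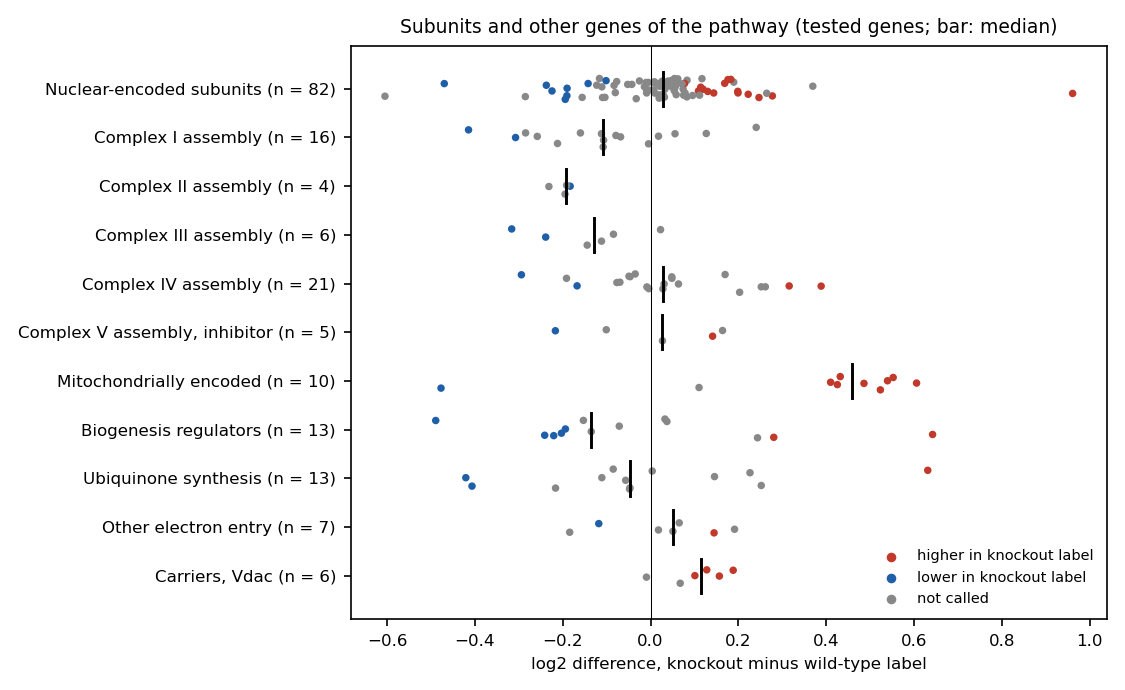
Log2 difference, knockout minus wild-type label (x axis), of each tested gene in the nuclear-encoded subunits and in the other lists of the pathway (rows, with the number of genes tested; vertical bars are medians, and height within a row carries no value). The mitochondrially encoded genes lie to the right, with a median of 0.46, and the nuclear-encoded subunits gather around 0.

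Among regulators of mitochondrial biogenesis Ppargc1b, the coactivator PGC-1beta, was at 6.11, 5.68 and 6.36 CPM in the knockout-labelled libraries, against 3.34, 4.21 and 4.10 CPM in the wild-type-labelled ones (log2 difference 0.64, SE 0.17; adjusted p = 0.00117, edgeR). Esrra, the estrogen-related receptor through which it acts on respiratory genes, was at 57.2, 53.3 and 56.8 CPM in the knockout-labelled libraries, against 48.5, 45.3 and 43.9 CPM in the wild-type-labelled ones (log2 difference 0.28, SE 0.056; adjusted p = 1.62e-05, edgeR). These were the 2 of 13 tested that were higher. In all 53.8% of the 13 were called, against 40.9% of all genes tested. The 5 that were lower were Nrf1 (-0.22; adjusted p = 0.0107, edgeR), both subunits of GABP, Gabpa (-0.20; 0.00140) and Gabpb1 (-0.49; 7.79e-07), the coactivator Pprc1 (-0.24; 1.63e-06) and Tfam, which packages and transcribes mitochondrial DNA (-0.19; 0.0405). Gabpb1 was at 16.1, 17.8 and 20.0 CPM in the knockout-labelled libraries, against 26.8, 23.7 and 24.9 CPM in the wild-type-labelled ones. Pprc1 was at 79.7, 84.0 and 83.5 CPM in the knockout-labelled libraries, against 96.8, 97.0 and 98.3 CPM in the wild-type-labelled ones. Polrmt, Polg, Polg2, Twnk, Tfb1m and Tfb2m were not called, and Ppargc1a was too low to test. The call of Nrf1 was lost without knockout replicate 2 (log2 difference -0.14; adjusted p = 0.195, edgeR), and that of Tfam without knockout replicate 1 (0.215), knockout replicate 2 (0.118), wild-type replicate 2 (0.113) or wild-type replicate 3 (0.156). mRNA levels of a regulator are not its activity, and no binding was measured here.

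Other routes into and out of the chain were mixed. The adenine nucleotide carriers Slc25a5 (0.19; adjusted p = 5.21e-08, edgeR) and Slc25a4 (0.16; 1.32e-05), the phosphate carrier Slc25a3 (0.13; 0.000111) and the outer membrane channel Vdac1 (0.10; 0.00476) were higher, 4 of 6 tested, against 21.6% of all genes tested, and none was lower. None of these 4 was called with a required change of 1.2-fold or with the assumed coefficient of variation of 0.1. These feed ADP and phosphate to complex V and export ATP. The call of Vdac1 was lost without wild-type replicate 1 (adjusted p = 0.0509, edgeR). Among 13 tested genes of ubiquinone synthesis or function Coq2 (-0.42; adjusted p = 3.94e-07, edgeR) and Coq10b (-0.41; 1.33e-07) were lower and Coq8a was higher (0.63; 0.000560). Of these 13, 23.1% were called, against 40.9% of all genes tested. Among 7 tested enzymes that pass electrons to ubiquinone beside complexes I and II, Gpd2, the mitochondrial glycerol-3-phosphate dehydrogenase, was higher (0.14; adjusted p = 0.00557, edgeR), and Etfa, of the electron transfer flavoprotein, was lower (-0.12; 0.0320). Of these 7, 28.6% were called, against 40.9% of all genes tested. Gpd2 lost its call with length and GC trends removed (adjusted p = 0.0596, limma). Etfa lost its call with DESeq2 (adjusted p = 0.0944) and without knockout replicate 1 (adjusted p = 0.0561, edgeR), knockout replicate 2 (0.230), wild-type replicate 1 (0.120) or wild-type replicate 3 (0.0576). Neither Gpd2 nor Etfa kept its call with a required change of 1.2-fold or with the assumed coefficient of variation of 0.1. The supercomplex factors Higd1a and Higd2a were not called. With a required change of 1.2-fold the 3 called ubiquinone genes, Ppargc1b and Gabpb1 among the regulators and 4 mitochondrially encoded genes kept their calls. DESeq2 also lost Nrf1, Tfam and mt-Atp6. These lists hold few genes and are given as counts only.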

How the data were processed

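RNA of 6 libraries was sequenced from MSU-treated bone-marrow-derived macrophages. The authors deposited raw read counts per gene, in whole numbers, made with fastp, STAR and featureCounts on mm10 per the submitters' processing notes, which name no versions. No source used here gives the strand setting, so reads of overlapping genes on opposite strands may not be told apart. Of the members 30 share exon bases with another gene and 18 have over 10% of their 75-base windows in another gene (GENCODE M21), which makes their levels less certain.

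Counts were tested in R 4.3.3 with edgeR 4.0.16: filterByExpr (minimum count 10), TMM scaling and the robust quasi-likelihood test with the genotype label as the one term, p-values being adjusted by the Benjamini-Hochberg method over all 13175 genes tested. Standard errors and 95% intervals come from that test, and fitted differences use a prior count of 0.125. An exact permutation test of 3 against 3 libraries cannot go below p = 0.1 and was not used. Alternatives were DESeq2 1.42.0, limma-voom (limma 3.58.1), scaling by RLE or by the upper quartile, other filters and gene types, a replicate block, each library left out, an assumed spread, a minimum fold, and length and GC trends removed. The last of these used limma on log2 CPM in place of edgeR, so the test changed too.

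Members, gene lists and marker lists were chosen with earlier results of these data known. Every member is named, apart from a gene that is not reported here or drawn in the plot of differences by complex, though it stays in the fits and counts. Values in each library are given for the 4 members of each complex with the smallest p, the highest level per kilobase, called changes of at least 0.5 on the log2 scale and isoform groups. Other members given with values were chosen after these had been seen. From each other list the 2 genes with the smallest p are named, and further called genes were chosen after their values were seen. No member lies within 10 Mb of Tet2. Rows with a matching symbol of another gene type, 12 in all, were left out. Of these 11 are processed pseudogenes, and Ndufb1-ps was at 31.7 ± 1.32 CPM in the knockout-labelled libraries and 31.8 ± 1.20 CPM in the wild-type-labelled ones (SD, n = 3 each).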

Additional observations from a re-analysis of the deposited data

How the results depend on the processing

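RLE scaling, limma-voom, protein-coding genes only, a floor of 1 CPM in 3 or more libraries, and a fit without mitochondrially encoded genes each kept all 23 calls and added none. The same held with the replicate number as a block, although same-numbered libraries did not deviate together (r = 0.0036, -0.0065 and -0.021) and the numbers do not pair them: 15 members were higher and 8 lower, and 5259 of all genes were called. In the other lists the block lost Lyz2 alone (adjusted p = 0.0938, edgeR). No called member changed direction under any of the 18 alternatives. Calls were lost, and in some settings others were gained, and the cause was not tested, as follows. Upper-quartile scaling, with 5482 of all genes called, left 0 calls in complex II and 1 in complex III. Testing without a filter did the same, with 5005 of all genes called. With upper-quartile scaling 19 of the 23 calls were kept and 3 added, with 13 calls in complex I. DESeq2 left 7 members higher and 5 lower, with 31.5% of all genes called. It left 6 calls in complex I, 0 in II, 1 in III and 1 in IV. An assumed coefficient of variation of 0.1 left 1885 calls over all genes and a minimum fold of 1.2 left 1383, and each left 1 member higher and 1 lower, with 1 call in complex I, 0 in II, 0 in III, 1 in IV and 0 in V. Removing length and GC trends kept 19 of the 23 calls and added 4. That fit left 0 calls in complex II and 13 in complex I. It gave 12 members higher and 11 lower, with 5543 of all genes called. It also turned the uncalled differences of Atp5b to -0.0041 and of Atp5g1 to -0.017.

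Leaving out each library in turn gave 9 to 16 members higher and 4 to 9 lower. In these fits 4725 to 5177 of all genes were called, against 5385 with all libraries. Calls numbered 7 to 10 in complex I, 0 to 1 in II, 1 to 2 in III and 2 to 5 in IV. Without wild-type replicate 1 or wild-type replicate 3, 9 were higher; 5 were lower without knockout replicate 3 and 4 without wild-type replicate 2. Leaving out 1 library at a time cost 15 of the 23 called members their call at least once, and 8 kept it each time. Differences near 0 changed sign when a library was left out: Atp5g3 ran from -0.051 to 0.023, Uqcr10 ran from -0.010 to 0.13, Ndufa2 ran from -0.028 to 0.021, Atp5b ran from -0.0033 to 0.043, Cox4i1 ran from -0.011 to 0.078 and Atp5g1 from -0.026 to 0.044. Among uncalled members 10 were called in at least 1 alternative.

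Depth limits the tissue isoforms: Cox4i2, Cox6a2 and Cox7a1 had at most 69 reads in a library, and 4 others were too low to test.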
